A study of Mus musculus with 16 samples.

Results

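The AP-1 and Egr immediate early factors are 10 genes, Fos, Fosb, Fosl1, Fosl2, Jun, Junb, Jund, Atf3, Egr1 and Egr2, read by symbol from a table of 24981 mouse genes. The cells were macrophages isolated by FACS (sorting on fluorescent labels) from C57BL/6 mice aged 8 weeks, with no genetic change or treatment given in the labels. There were 16 RNA-seq libraries, 4 for each of 4 populations: heart macrophages, and macrophages washed out of the pericardial, pleural and peritoneal cavities, the fluid-filled spaces around the heart, the lungs and the abdominal organs. Cells went straight from the sorter into TRIzol, and libraries carry the numbers 2 to 5 within each group. How the heart was broken up to free its cells, the sort gates and the time from harvest to lysis are, in the sources used here, not given. Solid tissue and lavage fluid need different handling, so tissue of origin and handling cannot be told apart in any comparison of heart with a cavity. The genes were chosen by their RPKM in heart against cavity libraries, with high heart levels of several already known, so heart values are given below as a description with no test. Differences between the cavities are tested.

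AP-1 is a family of dimeric transcription factors built from basic leucine zipper (bZIP) proteins. Fos proteins pair with Jun proteins and bind the sequence TGANTCA, Jun proteins can also pair among themselves, and Atf3 is a bZIP partner that often represses. Egr1 and Egr2 are zinc finger factors that bind GCGNGGGCG. Most of these genes are immediate early genes: they are transcribed within minutes of a stimulus without new protein synthesis, and their RNAs decay quickly. In macrophages, growth factors, microbial products, adhesion and stress, enzymatic tissue digestion among them, are known to switch them on.

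Promoters of several members are shown first as a description of sequence, and their part in the levels below was not tested. RefSeq windows on GRCm38.p6, from 250 bases before to 50 bases after a start site, were matched for 8 of the 10 genes (12 windows, 5 of them of Egr2), and Fosl1 and Egr1 had none in the table used. Below are those of Fos (chr12:85473640-85473939, plus strand), Fosb (chr7:19309996-19310295, minus strand), Jun (chr4:95052173-95052472, minus strand) and 1 Egr2 window (chr10:67537619-67537918, plus strand), each 5′ to 3′ along the gene. Capitals mark TGACG, the core of the cyclic AMP response element, in Fos; TGACG and then GCGNGGGCG in Fosb; TGACATCA, a variant AP-1 and ATF site, in Jun; and the CArG box, the site of serum response factor, in Egr2.
Fos: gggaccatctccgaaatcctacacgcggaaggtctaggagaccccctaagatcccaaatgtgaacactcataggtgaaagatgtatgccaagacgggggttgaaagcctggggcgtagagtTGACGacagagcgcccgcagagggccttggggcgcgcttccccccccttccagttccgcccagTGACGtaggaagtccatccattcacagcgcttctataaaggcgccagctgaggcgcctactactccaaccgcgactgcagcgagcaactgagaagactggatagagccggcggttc
Fosb: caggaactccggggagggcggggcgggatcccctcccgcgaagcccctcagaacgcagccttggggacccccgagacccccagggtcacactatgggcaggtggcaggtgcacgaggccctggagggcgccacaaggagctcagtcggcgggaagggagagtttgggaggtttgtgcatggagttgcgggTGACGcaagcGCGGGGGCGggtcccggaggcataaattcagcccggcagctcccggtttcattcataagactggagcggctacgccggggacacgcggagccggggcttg
Jun: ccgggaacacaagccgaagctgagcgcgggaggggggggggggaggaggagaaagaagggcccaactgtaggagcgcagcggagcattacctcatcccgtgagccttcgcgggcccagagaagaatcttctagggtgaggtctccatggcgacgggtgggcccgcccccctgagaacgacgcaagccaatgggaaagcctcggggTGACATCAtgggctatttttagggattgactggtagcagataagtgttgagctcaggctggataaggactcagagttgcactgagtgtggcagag
Egr2: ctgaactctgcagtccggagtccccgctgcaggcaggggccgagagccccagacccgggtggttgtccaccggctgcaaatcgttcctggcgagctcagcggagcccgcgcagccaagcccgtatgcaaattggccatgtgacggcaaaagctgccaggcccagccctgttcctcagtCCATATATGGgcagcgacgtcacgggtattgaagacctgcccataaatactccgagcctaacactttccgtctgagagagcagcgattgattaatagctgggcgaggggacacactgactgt

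In these windows TGACG began at positions -129 and -66 from the Fos start site and at -60 in Fosb, where GCGNGGGCG followed at -50. TGACATCA began at -45 in Jun, and the CArG box at -72 in the Egr2 window. Both strands were searched in all windows. TGACG was in 7 of the 12 windows, of 5 genes, against 20.8% of all 32851 RefSeq windows, and the CArG box was in 4 of 12, all of Egr2, against 1.63%. GCGNGGGCG was in the windows of Fosb and Fosl2 (2 of 12, against 5.55%), and TGACATCA in that of Jun (1 of 12, against 3.62%). The full sites TGANTCA (7.81% of all windows) and TGACGTCA (1.79%) were in 0 of the 12. TGACG lies within TGACGTCA, and some Egr2 windows overlap each other. These matches describe letters in short windows and not bound sites.

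Alignments numbered 40886702 to 70166356 per library. Values are RPKM, read densities per kilobase of transcript normalised to library size, so levels of different genes can be set side by side. All 8 macrophage marker genes averaged at least 1 RPKM in every group. The 6 cavity macrophage markers summed to 61.1 to 84.5 RPKM in heart libraries and to 3640 to 5881 in cavity libraries, while the 6 cardiac macrophage markers summed to 1048 to 1509 in heart and 19.3 to 85.8 in cavity libraries. Peritoneal library 4 had the lowest mean correlation with its own group across genes (0.965). In bulk RNA, more cells expressing a gene and more RNA per cell cannot be told apart. Nothing in the labels ties libraries to separate mice, so the p-values cover the spread between these libraries only, which may be technical.

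Of the 10 genes, 9 had a heart level above every library of every cavity, and Fosl1, a Fos relative, was near 0 everywhere. Among all 11234 genes that reached 1 RPKM in at least 4 libraries, 11.9% were likewise higher in heart with no overlap against pericardial, 13.4% against pleural and 11.7% against peritoneal libraries. Because high heart levels chose the genes, nothing is read from that contrast of counts. Fosb and Egr2 passed the filter on low values through heart: of the 12 cavity libraries, 1 reached 1 RPKM for Fosb and 0 for Egr2. Log2 folds below are of RPKM + 0.5 with their standard error (SE), heart over cavity, and understate changes of low genes.

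Fos, the founding member of its family and a strong activator, was the most abundant of the 10 in heart macrophages. It had 1543, 1585, 2465 and 1826 RPKM in heart libraries 2 to 5. The matching libraries had 40.5, 50.9, 65.2 and 43.0 RPKM in pericardial, 14.1, 12.6, 13.02 and 12.3 RPKM in pleural, and 5.95, 8.28, 2.57 and 7.39 RPKM in peritoneal macrophages. No library of any of the 4 groups overlapped another group, and the order was heart, pericardial, pleural, peritoneal. The heart log2 fold was 5.20 ± 0.26 over pericardial, 7.08 over pleural and 8.23 over peritoneal libraries (SE, n = 4 per group).

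Fosb, a close paralogue of Fos, had the steepest contrast. Heart libraries held 369, 429, 589 and 245 RPKM. Pericardial libraries held 0.321, 0.332, 0.487 and 0.374 RPKM, pleural libraries 1.14, 0.872, 0.967 and 0.726 RPKM, and peritoneal libraries 0.236, 0.206, 0.0725 and 0.270 RPKM. Fosb was close to 0 in every cavity, and among the cavities pleural libraries stood above both others without overlap. Its heart log2 fold of 8.79 ± 0.19 over pericardial libraries, 8.10 over pleural and 9.13 over peritoneal ranked 1 of 11234 genes in each comparison. High heart levels chose the genes, so nothing is read from that rank. With 0.1 or 1 added to RPKM in place of 0.5, the fold over pericardial libraries was 9.68 or 8.145.

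The 2 other Fos relatives, which lack the strong activation domain of Fos, were different. Fosl2 had 21.6, 27.9, 37.2 and 16.2 RPKM in heart libraries, against 15.1, 12.4, 13.4 and 10.99 RPKM in pericardial, 10.2, 12.3, 12.1 and 10.99 RPKM in pleural and 11.03, 13.3, 7.64 and 12.7 RPKM in peritoneal libraries. The heart levels stood above all cavities by a narrow margin, with 16.2 the lowest heart and 15.1 the highest cavity value, at a log2 fold of 0.90 ± 0.21, 1.07 and 1.13. Fosl1 was listed at 0 in 9 of the 16 libraries and reached at most 0.0884 RPKM, in a pleural library, so it was not tested.

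Jun, the main AP-1 partner of Fos, had 894, 853, 1155 and 831 RPKM in heart libraries. It had 31.1, 23.8, 19.99 and 22.6 RPKM in pericardial, 13.6, 9.52, 9.25 and 10.6 RPKM in pleural and 9.38, 8.30, 3.52 and 7.77 RPKM in peritoneal libraries. Pericardial libraries exceeded all pleural and peritoneal ones, and pleural and peritoneal values overlapped slightly. The heart log2 fold was 5.24 ± 0.23 over pericardial, 6.38 over pleural and 6.98 over peritoneal libraries.

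Junb and Jund, Jun relatives that can restrain Jun, were already abundant in the cavities and had smaller heart folds. Junb had 939, 946, 1227 and 966 RPKM in heart libraries, against 229, 195, 195 and 139.7 RPKM in pericardial, 108, 103, 135 and 103 RPKM in pleural and 101, 113, 56.9 and 84.6 RPKM in peritoneal libraries. Jund had 311, 346, 421 and 364 RPKM in heart libraries, against 93.7, 61.0, 57.4 and 42.7 RPKM in pericardial, 53.5, 48.9, 41.6 and 40.7 RPKM in pleural and 33.4, 36.2, 14.8 and 27.6 RPKM in peritoneal libraries. Every heart library exceeded every cavity library for both. Their heart log2 folds were 2.44 ± 0.21 and 2.54 ± 0.25 over pericardial, 3.18 and 2.95 over pleural and 3.55 and 3.73 over peritoneal libraries.

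Atf3, the stress-responsive bZIP repressor, had 641, 520.3, 1092 and 645 RPKM in heart libraries. It averaged 725 ± 252 RPKM there, and 14.3 ± 2.97, 12.7 ± 1.53 and 10.7 ± 3.81 RPKM in pericardial, pleural and peritoneal libraries (SD, n = 4 each). Its highest cavity library stood at 18.3 RPKM, so heart and cavities did not overlap. The 3 cavities overlapped each other, and the heart log2 fold was 5.58 ± 0.25, 5.73 and 6.04 over them in that order.

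Egr1, whose product drives growth and stress responses, had 648, 728, 1004 and 496 RPKM in heart libraries. It had 2.72, 3.06, 8.96 and 3.94 RPKM in pericardial, 2.16, 1.63, 5.87 and 2.11 RPKM in pleural and 3.42, 3.14, 2.67 and 2.49 RPKM in peritoneal libraries. The cavities overlapped one another, and library 4 was the highest in both the pericardial and the pleural group. The heart log2 fold was 7.22 ± 0.32 over pericardial, 7.80 over pleural and 7.67 over peritoneal libraries.

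Egr2, like Egr1, was far higher in heart than in the cavities, at a lower level. Heart libraries held 60.1, 59.2, 99.99 and 62.8 RPKM, pericardial libraries 0.486, 0.651, 0.339 and 0.259 RPKM, pleural libraries 0.545, 0.434, 0.428 and 0.539 RPKM, and peritoneal libraries 0.578, 0.159, 0.388 and 0.250 RPKM. All cavity levels lay under 1 RPKM and overlapped. The heart log2 fold was 6.23 ± 0.19, 6.14 and 6.38 over pericardial, pleural and peritoneal libraries.

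**Figure D1:**
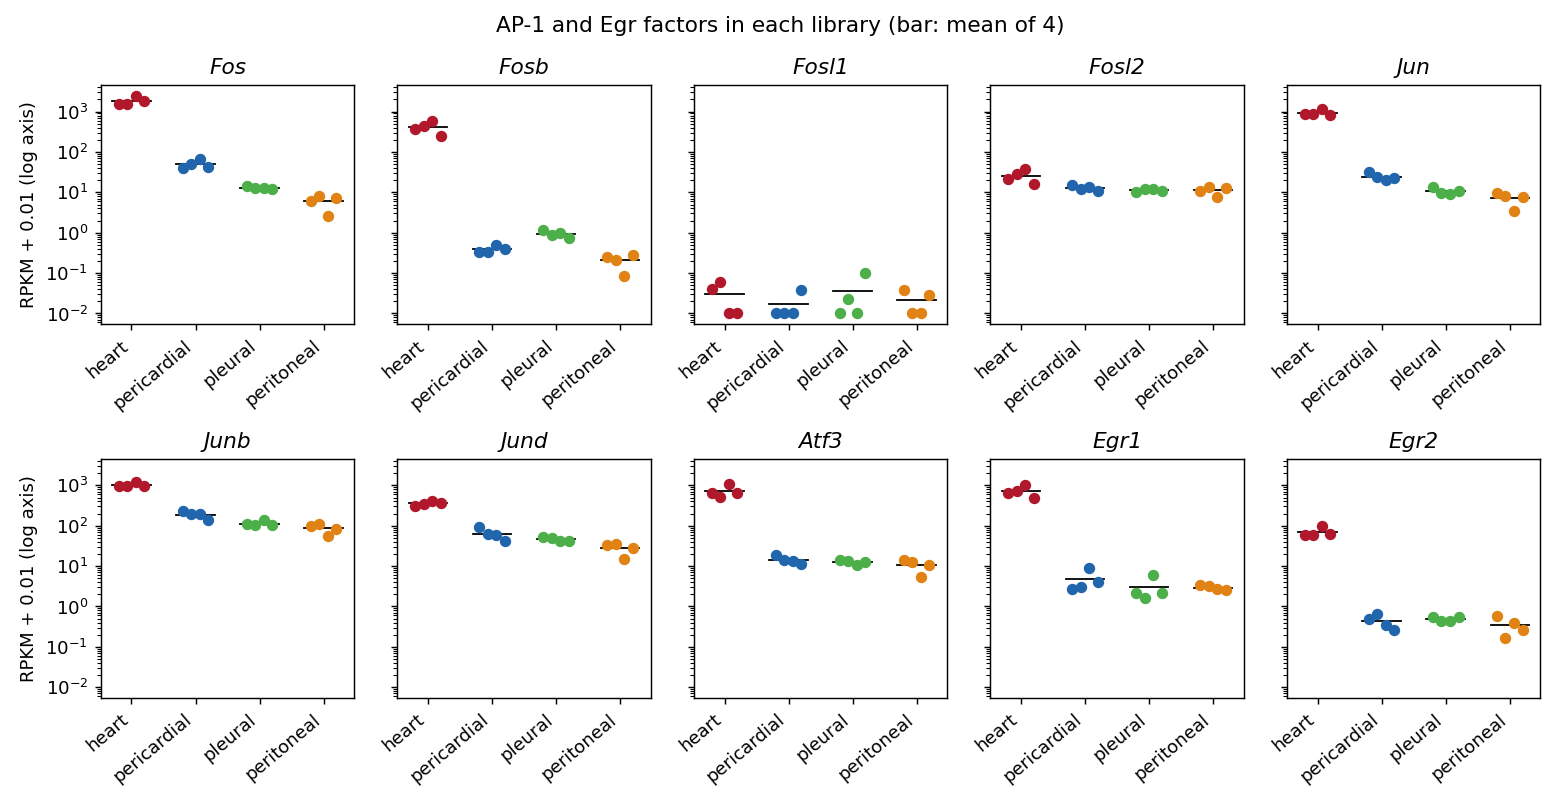
RPKM + 0.01 on a log axis for the 10 genes, 1 point per library and a bar at the mean of 4, with heart left of the cavities. Heart points stand above every cavity point for 9 genes, Fosl1 lies near 0, and Fos steps down through the pericardial, pleural and peritoneal groups.

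These heart levels came with RNA of other cells. Cardiomyocyte markers summed to 236 to 498 RPKM in heart libraries and to 2.58 to 4.38 RPKM in cavity libraries (6 of 8 averaged at least 1 RPKM in heart, and 2 of 8 in each cavity). Fibroblast markers summed to 58.0 to 266 RPKM in heart and to at most 0.692 RPKM in cavity libraries, with 6 of 6 averaging at least 1 RPKM in heart and 0 of 6 in each cavity. Mural cell markers summed to 5.44 to 14.1 RPKM in heart and to at most 0.625 RPKM in cavity libraries. No marker in these 3 lists was at 0 in every library of a group, and their part in the heart levels was not tested.

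The makeup of the Fos family shifted between the populations. The summed RPKM of its 4 genes was 2288 ± 539 in heart, 63.2 ± 11.3 in pericardial libraries, 25.4 ± 0.895 in pleural and 17.4 ± 5.12 in peritoneal ones (SD, n = 4 each). Fos made up 81.2% ± 4.34 of that sum in heart, 78.5% ± 4.26 in pericardial libraries, 51.3% ± 2.86 in pleural and 33.4% ± 5.82 in peritoneal ones. Fosl2 mirrored it, with 1.12% ± 0.248 (heart), 20.9% ± 4.27 (pericardial), 45.0% ± 3.32 (pleural) and 65.4% ± 6.06 (peritoneal). Fosb held 17.7% ± 4.09 of the sum in heart and 3.64% ± 0.624 in pleural libraries. Heart and pericardial macrophages thus both had mostly Fos, at summed levels that differed widely, and peritoneal macrophages mostly Fosl2.

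The Jun family divided otherwise. Its summed RPKM was 2313 ± 327 in heart, 278 ± 60.9 in pericardial libraries, 169 ± 14.2 in pleural and 124 ± 36.0 in peritoneal ones. Jun held 40.3% ± 1.47 of it in heart libraries, and 8.92% ± 1.54, 6.38% ± 1.21 and 5.75% ± 0.915 in the pericardial, pleural and peritoneal groups. Junb was the largest part in all 4 groups, at 44.1% ± 0.422 in heart, 68.5% ± 2.91 in pericardial libraries, 66.2% ± 4.82 in pleural and 72.0% ± 2.53 in peritoneal ones. The ratio of summed Fos family to summed Jun family RPKM was 0.981 ± 0.0859 in heart libraries, against 0.235 ± 0.0576 in pericardial libraries, 0.151 ± 0.00932 in pleural and 0.141 ± 0.0208 in peritoneal ones.

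**Figure D2:**
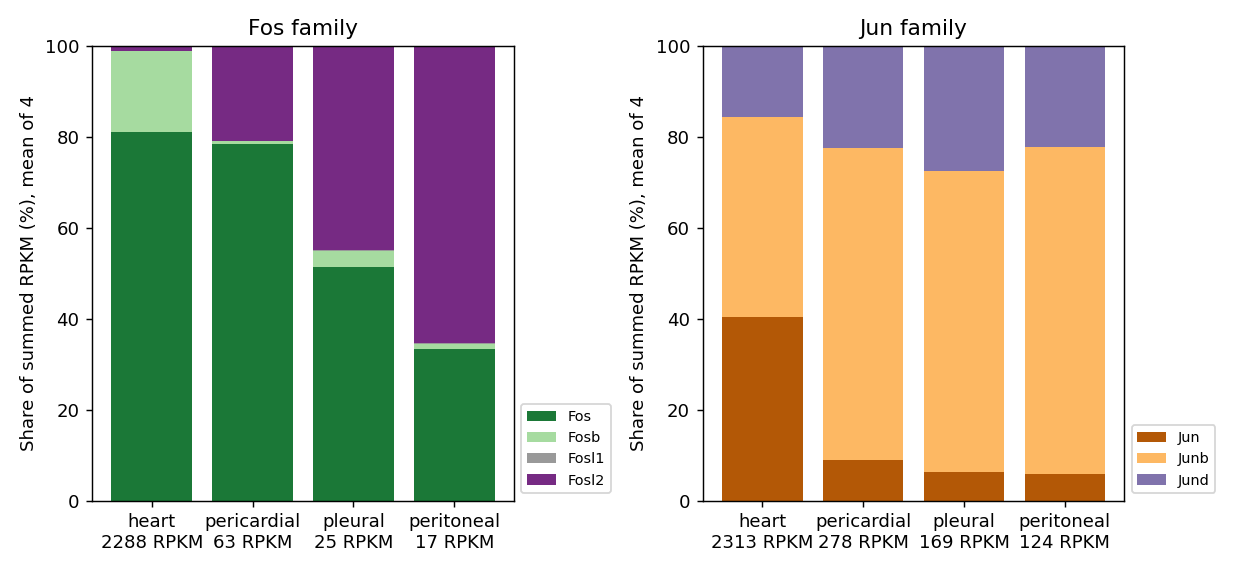
Mean share (%) of the summed RPKM held by each gene of the Fos family (left) and Jun family (right) over 4 libraries, with the summed RPKM under each group. Fos holds 81.2% of its family in heart and 33.4% in peritoneal libraries, where Fosl2 holds 65.4%, and Jun is 40.3% of its family in heart.

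Between the cavities, the clearest difference was in Fos, which was higher in pericardial than in peritoneal macrophages, higher in pleural than in peritoneal, and higher in pericardial than in pleural. In pericardial against peritoneal libraries, 4 of the 9 genes tested were called higher (Fos, Jun, Junb and Jund) and 0 lower, at an adjusted p under 0.05 from limma's moderated test over all 11234 genes, where 0.525% were called higher and 0.952% were called in all. Over all genes the split was 59 higher and 48 lower, and 112 and 364 at equal RPKM totals. The log2 fold was 3.02 ± 0.26 for Fos (limma adjusted p = 1.46e-06, rank 7 by size) and 1.74 ± 0.23 for Jun (adjusted p = 0.000239). It was 1.11 ± 0.21 for Junb (limma adjusted p = 0.00817) and 1.19 ± 0.25 for Jund (adjusted p = 0.0186). All 4 pericardial libraries lay above all 4 peritoneal libraries for these 4 genes and for Fosb (5 of 9, against 1.87% of all genes). Fosb itself was not called at its low level (log2 fold 0.34, limma adjusted p = 0.627). Atf3, Egr1, Fosl2 and Egr2 had log2 folds of 0.46, 0.46, 0.23 and 0.15 and did not pass the test. Jund lost its call without pericardial library 2 (adjusted p = 0.0964), 3 or 4 or peritoneal library 5, without the filter and in a fit of these 2 groups alone, and Junb without pericardial library 2 (0.0502) and in that fit of limma.

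In pleural against peritoneal libraries, 2 of 9 genes were called higher, Fos and Fosb, and 0 lower, against 0.214% of all genes called higher and 0.588% called in all (24 higher and 42 lower, and 111 and 633 at equal RPKM totals). The log2 fold was 1.15 ± 0.26 for Fos (limma adjusted p = 0.0427) and 1.03 ± 0.19 for Fosb (limma adjusted p = 0.0118), with no overlap for either. Fosb was in the tested set through its heart levels. Its means here, 0.926 and 0.196 RPKM, lay under the filter's minimum of 1 RPKM. Jund was above peritoneal in every pleural library too, so 3 of 9 genes did not overlap (1.9% of all genes), but its log2 fold of 0.78 did not pass (limma adjusted p = 0.234). It did pass with median-ratio scaling (limma adjusted p = 0.0182), quantile normalization (0.0365) and equal RPKM totals (0.0434). Jun, Junb, Atf3 and Egr2 had log2 folds of 0.60, 0.37, 0.31 and 0.25 and Egr1 of -0.13, none past the test. The Fos call was lost without any 1 of the 4 pleural libraries or peritoneal library 2 (limma adjusted p up to 0.1263). It was also lost in a fit of these 2 groups alone (limma adjusted p = 0.0677) and with the replicate number as a block (0.0719). The Fosb call was lost without pleural library 2 (limma adjusted p = 0.0528). Fosb also lost it at a pseudocount of 1 (limma adjusted p = 0.108) or after quantile normalization (0.106), and without the filter on low values neither was called.

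In pericardial against pleural libraries, 2 of 11234 genes were called in all (0.0178%), Fos higher (0.0089% called higher) and the microRNA gene Mir3064 lower, which is named after its value was seen. Fos was the 1 call among the 9 genes tested, at a log2 fold of 1.87 ± 0.26 (limma adjusted p = 0.00621), and it stayed called with any 1 library left out (adjusted p up to 0.0495) but not without the filter on low values (0.0597). Jun was higher in all 4 pericardial than in all 4 pleural libraries, with a log2 fold of 1.14 ± 0.23 that did not pass (limma adjusted p = 0.164). Junb, like Fos and Jun, did not overlap (3 of 9 higher, against 1.29% of all genes), at a log2 fold of 0.74 (adjusted p = 0.968). Fosb ran the other way, lower in every pericardial library (1 of 9, against 0.783%), at -0.70 ± 0.19 (limma adjusted p = 0.968).

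The orders of the cavity levels follow from these tests. For Fos, the neighbours pericardial and pleural, and pleural and peritoneal, both passed. The pleural and peritoneal call was lost in 8 of 17 alternative runs. The pericardial and pleural call was lost in 1 of 17, without the filter on low values. For Jun, Junb and Jund, pericardial and peritoneal passed and neither pair of neighbours did on the deposited scale, though Jund passed in pleural against peritoneal libraries under each of the 3 other scalings. For Atf3, Egr1, Egr2 and Fosl2 no pair of cavities passed. Cardiomyocyte marker sums overlapped in the cavities, at 2.58 to 4.13 RPKM in pericardial, 3.15 to 4.38 in pleural and 3.06 to 3.71 in peritoneal libraries. Ryr2, which was lower in heart (at most 0.719 RPKM), and Tnni3 made up most of these sums. Mb was at 0.160 to 0.202 RPKM in pleural libraries and at most 0.0230 in the other cavities. Myl2 was at 0.14 to 0.36 RPKM against at most 0.041. The other cardiomyocyte markers overlapped between pleural libraries and another cavity. The part of heart RNA in the pleural levels was not tested. Fibroblast sums stayed at or under 0.692 RPKM. Erythroid markers summed to 31.8 to 415 RPKM in pericardial, 38.4 to 84.1 in pleural and 0.418 to 1.99 in peritoneal libraries. Peritoneal libraries were thus lowest without overlap, while pericardial and pleural libraries overlapped. Heart libraries held 149 to 411 RPKM of them, and their part in the Fos order was not tested. B cell markers summed to 22.1 to 69.7, 28.7 to 70.1 and 14.7 to 49.3 RPKM in pericardial, pleural and peritoneal libraries. Dendritic cell markers summed to 17.45 to 22.6, 20.2 to 21.6 and 11.6 to 11.9 RPKM, lowest in peritoneal libraries without overlap. Most of that gap lay in Batf3, at 9.52 to 13.6, 10.6 to 11.4 and 2.85 to 5.61 RPKM. Zbtb46 was also lowest there without overlap, at no more than 0.4235 RPKM in any cavity library. Flt3, Xcr1, Cd209a and Ccr7 overlapped between peritoneal libraries and another cavity, and Xcr1 was highest in peritoneal library 4 (5.02 RPKM). Monocyte marker sums overlapped (136 to 200, 137 to 206 and 96.15 to 161 RPKM). The sum of mast cell and eosinophil markers ran the other way, at 1.63 to 5.71 RPKM in peritoneal libraries and at most 0.423 in the other cavities. The mast cell genes Cpa3 (0.614 to 1.26 RPKM) and Mcpt4 (0.470 to 4.12) made up most of the peritoneal sums. Of the eosinophil genes, Siglecf overlapped between cavities, Prg2 was at 0 in every peritoneal library and Epx was at most 0.0230 RPKM there. The part of these cells in the Fos order was not tested.

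**Figure D3:**
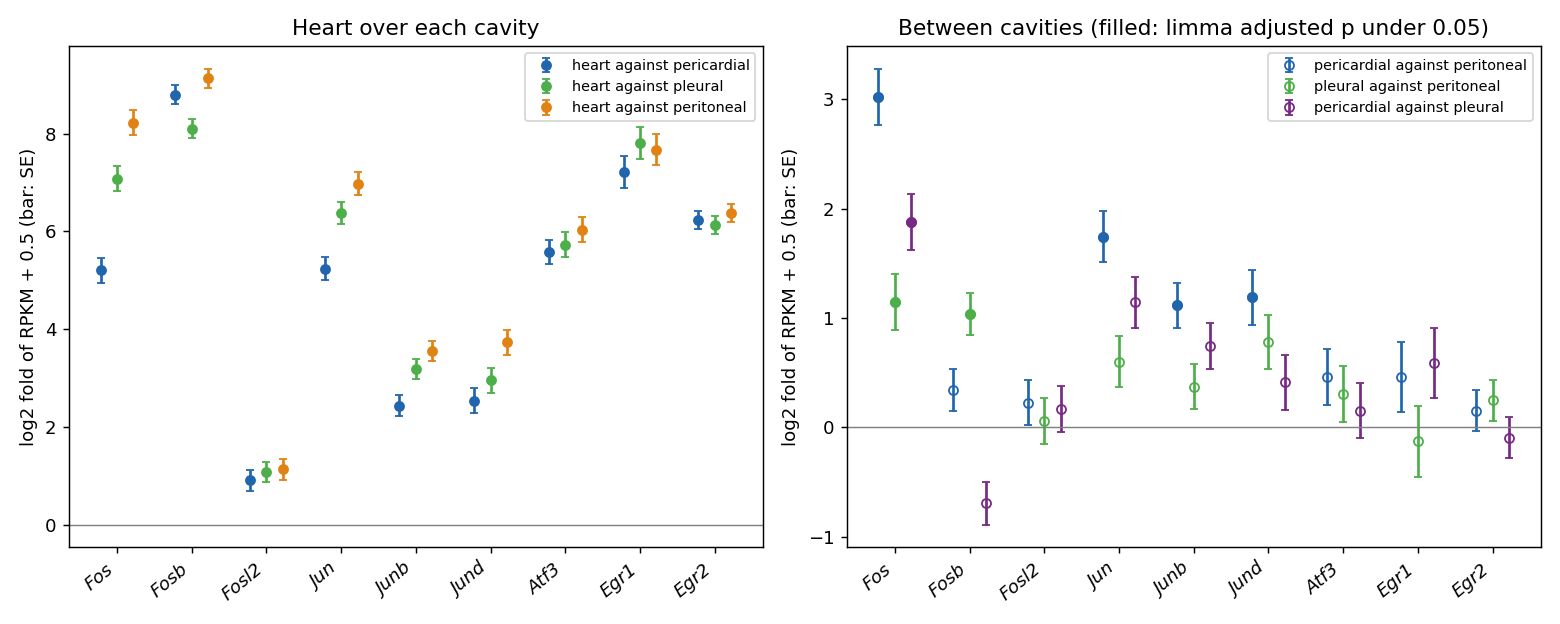
Log2 fold of RPKM + 0.5 with its SE for the 9 genes tested, heart over each cavity (left) and between cavities (right, filled where limma's adjusted p was under 0.05). Fos has the largest fold between cavities, 3.02 in pericardial over peritoneal libraries, and Fosl2 the smallest heart folds, 0.90 to 1.13.

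Other immediate early genes had the same heart pattern. Of 26 tested, 24 were higher in heart against each cavity, 1 was lower and 1 was not called, where 14.7%, 13.9% and 14.1% of all genes were called higher and 53.8%, 47.8% and 48.8% lower against pericardial, pleural and peritoneal libraries. Their median log2 fold was 2.80, 3.27 and 3.58, against -0.45, -0.36 and -0.38 for all genes. Scaling moved the balance of all genes: against pericardial libraries 1650 were higher and 6048 lower as deposited, and 4070 higher and 2694 lower at equal RPKM totals, where 25 of the 26 were higher and 1 lower. The matricellular gene Cyr61 was at 7.43, 6.89 and 7.42, the growth arrest gene Gadd45b at 6.51, 6.40 and 6.83, Phlda1 at 5.33, 5.40 and 5.81, and the nuclear receptor Nr4a1 at 4.68, 5.30 and 5.12. Myc, a growth factor-induced regulator, was the 1 lower (-0.95, -0.71 and -1.002) and Klf2, a zinc finger factor, the 1 not called, both named after their values were seen. Of the 26, Cyr61, Arc and Nr4a2 lay under 1 RPKM in all 12 cavity libraries and so passed the filter through heart alone, and of the other 23, 21 were higher and 1 lower against each cavity. The list was drawn up with the heart pattern known, so it is not independent evidence of its direction.

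Between the cavities, 5 of those 26 genes were called higher in pericardial than in peritoneal libraries, against 0.525% of all genes. Zfp36, which destabilises inflammatory RNAs, had a log2 fold of 1.31 (limma adjusted p = 0.000718), Ier5 1.21 (0.00827), Ier3 1.19 (0.00511) and the phosphatase gene Dusp1 1.18 (0.0122). Ier2 was the fifth, at 0.97 (limma adjusted p = 0.0122), and 0 of the 26 were called in pleural against peritoneal or in pericardial against pleural libraries. Dusp1 lost its call without pericardial library 4 (limma adjusted p = 0.0589) and without the filter on low values (0.0622).

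Heat shock genes, induced by protein damage, were higher in heart for 9 of 12 against each cavity and lower for 0, where 14.7%, 13.9% and 14.1% of all genes were higher against pericardial, pleural and peritoneal libraries, with medians of 1.66, 1.95 and 1.85. Hspa1a, an inducible Hsp70 gene, was at 5.46, 6.52 and 8.37 on the log2 scale, and its near-identical neighbour Hspa1b, whose reads it may share, at 4.82, 5.83 and 7.43. Both were also called between cavities. Hspa1a averaged 45.8 ± 25.9 RPKM in pericardial libraries, 20.7 ± 8.66 in pleural and 5.46 ± 2.26 in peritoneal ones (SD, n = 4 each), with a log2 fold of 2.91 ± 0.35 in pericardial against peritoneal (limma adjusted p = 6.9e-05) and 1.84 in pleural against peritoneal libraries (0.0124). Hspa1b at 2.61 (limma adjusted p = 0.00580) and the small heat shock gene Hspb1 at 1.98 (0.0186) were the other 2 of 12 called in pericardial against peritoneal libraries, against 0.525% of all genes called higher. In pericardial against pleural libraries 0 of 12 were called, and Hspa1a and Hspa1b overlapped there. Hspb1 lost its call without any 1 of pericardial libraries 2 and 3 and peritoneal libraries 2, 4 and 5. The pleural call of Hspa1a was lost without pleural library 5 (limma adjusted p = 0.0678), and without the filter on low values it (0.1153), Hspa1b (0.0653) and Hspb1 (0.159) were not called. The part of heat shock genes in the Fos differences between cavities was not tested.

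Textbook AP-1 target genes went both ways in heart. Of 14 tested, 10 were higher and 3 lower against pericardial and against pleural libraries, and 11 higher and 3 lower against peritoneal libraries, with medians of 2.43, 2.46 and 2.54, where 13.9% to 14.7% of all genes were higher and 47.8% to 53.8% lower. Mmp3, Mmp13, Il1b and Ptgs2 lay under 1 RPKM in all cavity libraries and passed the filter through heart alone, and of the other 10, 6 to 7 were higher and 3 lower. The cytokine Il1b was at 7.95, 7.42 and 8.10, the chemokine Ccl2 at 6.996, 7.45 and 8.03, the collagenase Mmp13 at 6.07, 5.85 and 6.09 and Tnf at 5.89, 6.14 and 6.02 on the log2 scale. The 3 lower were Plaur, the urokinase receptor, Ccnd1, a cyclin, and Cd44, an adhesion receptor, named after their values were seen (log2 folds of -3.73, -2.28 and -0.96 against pericardial libraries). In the cavities, 1 of 14, Ccl2, was called in pericardial against peritoneal libraries, against 0.525% of all genes higher (log2 fold 1.04, limma adjusted p = 0.0467), a call that was lost without any 1 of pericardial libraries 2, 3 and 4 and peritoneal libraries 3, 4 and 5.

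Genes upstream of the family and its bZIP relatives were mixed. Of 29 other bZIP factors, 12 were higher in heart and 8 to 9 lower (18 and 3 against pericardial libraries at equal RPKM totals), with Maff at 4.39, 4.31 and 4.43, Maf at 2.60, 2.72 and 2.23 and Creb5 at 2.39, 2.21 and 2.43, and Nfe2, a haematopoietic factor, at -5.58, -5.46 and -5.25. Maff and Creb5, like Egr3, lay under 1 RPKM in all cavity libraries and passed the filter through heart alone. Of 23 kinases and serum response factor genes tested, 4 to 5 were higher and 7 to 10 lower, with Map3k8 at 2.19, 2.25 and 2.34 and Mapk3 at 0.85, 0.99 and 1.14 higher and Mapk9, a Jun kinase, at -0.82, -0.80 and -0.82 lower. Most called genes of this list were higher instead when libraries were given equal RPKM totals (11 higher and 2 lower against pericardial libraries). Egr3, a relative of Egr2, was at 3.79, 3.85 and 3.81 and the Egr co-repressor Nab2 at 1.54, 1.80 and 1.26, while Nab1 was lower at -0.60, -0.39 and -0.61, with a sign that turned under other scalings. All 3 tested ligases that target Jun or Fos for breakdown were lower, Itch at -1.03, -0.88 and -1.18, Fbxw7 at -0.81, -0.71 and -1.03 and Det1 at -0.73, -0.59 and -0.68, but under equal RPKM totals 1 of 3 was lower against pericardial and against pleural libraries. Between the cavities Batf3 was higher in pericardial (1.24, limma adjusted p = 0.00484) and in pleural (1.17, 0.0105) than in peritoneal libraries, the pleural call being lost without the filter on low values (0.0740). Cebpd was higher in pericardial than in peritoneal libraries (0.85, limma adjusted p = 0.0357), a call lost when any 1 of pericardial libraries 2, 3 and 4 or peritoneal libraries 4 and 5 was left out.

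**Figure D4:**
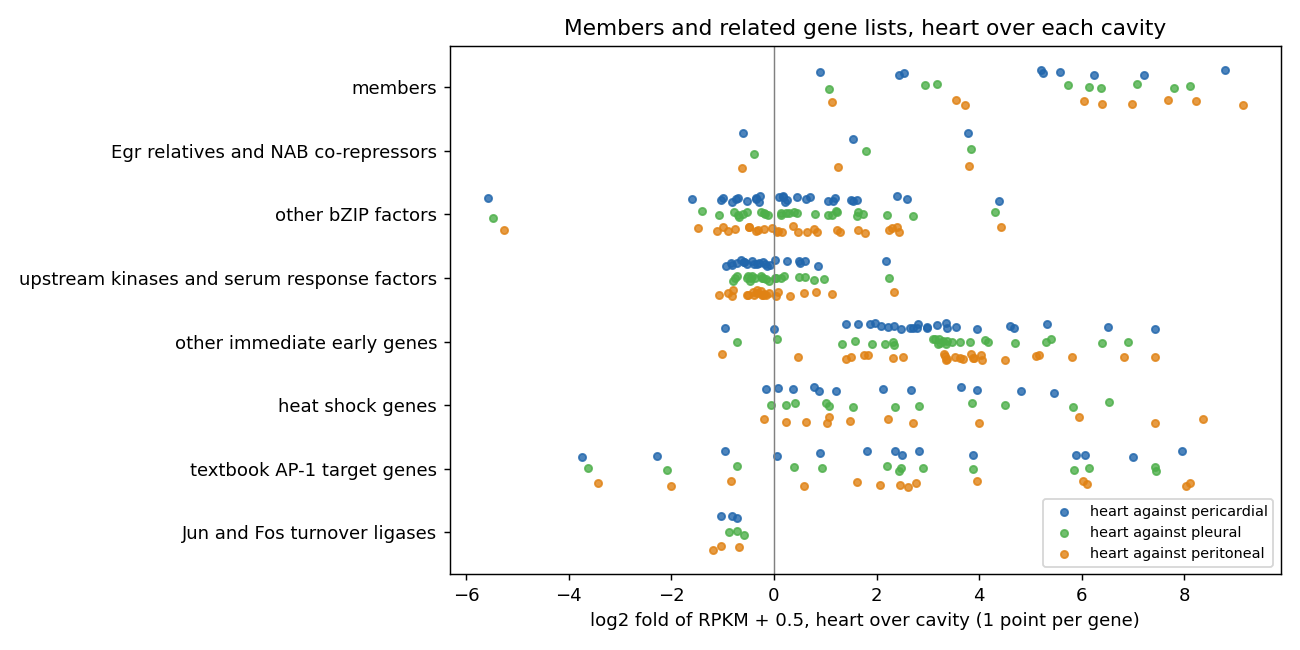
Log2 fold of RPKM + 0.5, heart over each cavity, for the 9 genes and for every tested gene of 7 related lists, 1 point per gene. The immediate early and heat shock lists sit mostly to the right of 0, the upstream kinases around 0, with medians of 2.80, 1.66 and -0.29 against pericardial libraries.

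Over the 16 libraries, which share the large difference between heart and cavities, the genes most like Fos by Pearson's r of log2(RPKM + 0.5) were Zfp36 (0.992), Dusp1 (0.989) and Ier3 (0.989). Those most like Jun were Rhob, Ier2 and Zfp36 (each 0.993), those most like Egr1 were Nr4a1 (0.995), Gdpd5 (0.992) and Klf4 (0.990), and those most like Jund were Ier5 (0.991), Ier2 (0.987) and Fmnl1 (0.986). Within groups the closest genes were others. After the group means were removed, those most like Fos were Mapk8 (0.935), Tmcc3 (0.934) and Rrn3 (0.927). For Jun they were Plk4 (0.944), Lmna (0.939) and Jade1 (0.933), and for Egr1 Tmem234 (0.8675), Myoz1 (0.848) and Car6 (0.832). For Jund they were Sfpq (0.973), Xpo1 (0.968) and Usp1 (0.963). Likewise, the 36 pairs among the 9 genes had r from -0.106 to 0.892 with a median of 0.485, and 33 were above 0. The share over all gene pairs was not computed, so nothing is read from that count. Heart library 4 was the highest heart library for all 9 genes, while 35.6% of all genes were highest there, and at equal RPKM totals it was highest for 7 of 9 (24.9%). Peritoneal library 4 was the lowest peritoneal library for 7 of 9 genes (84.3% of all genes), and for 6 of 9 at equal RPKM totals (21.3%).

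Fosb and Egr2 have transcripts that the authors' deposited table lists apart, as means of log2 RPKM. Heart over pericardial differences of these means for Fos, Jun and Egr1 (5.213, 5.259 and 7.356) equalled the folds at a pseudocount of 0.1. The means thus seem to carry an offset of 0.1, which narrows differences near 0. In that table the Fosb transcript NM_008036, which codes the full protein of 338 residues in 4 exons, averaged 7.88 in heart, -1.52 in pericardial libraries, -0.78 in pleural and -2.12 in peritoneal ones. The second Fosb transcript, NM_001347586, averaged 7.28, -2.17, -0.92 and -2.79 in the same order of the authors' deposited table. The first exceeded the second by 0.60, 0.65, 0.15 and 0.67 in the authors' deposited table, with no error given. Both were high in heart, and the listed gap was smallest in pleural libraries. The cavity values lie near the offset, which narrows their gaps, so those gaps cannot be set beside the gap in heart. For Egr2, the authors' deposited table gives 5.84, -1.02, -0.78 and -1.70 for NM_010118 and 3.72, -3.06, -3.30 and -2.59 for NM_001347458. The values of -3.06 and -3.30, in pericardial and pleural libraries, lie near those of Fosl1 there (-3.23 and -3.05), a gene close to 0.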

How the data were processed

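RNA of 16 libraries was sequenced. Sorted cells were lysed in TRIzol, followed by Direct-zol extraction and NEBNext Ultra II library preparation, per the labels' protocols. The submitters' processing notes name Partek 7.18.0723, bcl2fastq 2.17.1, TopHat2 2.1.1 and the build mm10. Mapping by TopHat and the deposited RPKM, computed in Partek, are stated per the file headers. The authors also deposited a count of alignments per library and a table of transcript means of log2 RPKM. The annotation, strand, multiple hits and read total behind RPKM are, in the sources used here, not given. RPKM hold no counts, so no counting interval is given. Jund is listed with 2 transcript IDs of equal values.

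log2(RPKM + 0.5) was tested for the 11234 genes with at least 1 RPKM in at least 4 libraries, with limma 3.58.1 in R 4.3.3: 1 mean per group over all 16 libraries, trended variance, 12 residual degrees of freedom, Benjamini-Hochberg adjustment, calls at an adjusted p under 0.05. The code was tested on simulated data. The genes, lists and comparisons were chosen with earlier results of these data known. Named genes of a list were up to 4 called against all 3 cavities with 1 sign and the largest median fold, or called between cavities. Promoters came from RefSeq (GRCm38.p6). Same-numbered libraries correlated at -0.627 to 0.63 after group means were removed (median 0.195, 14 of 24 pairs over 0.1), so numbers were not taken to pair libraries over the 4 groups. Between pericardial and pleural libraries all 4 pairs were over 0.1 (0.194 to 0.63), and there the replicate block changed no call of the 9 genes. Pleural and peritoneal libraries had 3 of 4 such pairs, and there the block ended the Fos call (limma adjusted p = 0.0719). Other pseudocounts, filters, scalings, fits and left-out libraries were tried.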

Additional observations from a re-analysis of the deposited data

Results flagged for a closer look

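In 6 of 40 groups of 4 libraries, 1 library lay far from the other 3 relative to the group's range; chance gives about 1 in 20 such groups. Heart library 4 was high for Junb (1227 RPKM) and for Egr2 (99.99 RPKM). Pleural library 4 was high for Junb (135 RPKM) and for Egr1 (5.87 RPKM). For Fosl1, listed at or near 0 throughout, pericardial library 5 (0.0290 RPKM) and pleural library 5 (0.0884 RPKM) stood apart.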

How the results depend on the processing

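All 9 tested genes kept a positive heart fold against each cavity under every alternative run. The total number of genes called against each cavity stayed within 1.5 times, but the split into higher and lower did not. Scaling shifted all genes: against pericardial libraries 1650 were higher in heart and 6048 lower (median log2 fold -0.45), but median-ratio scaling gave 3535 and 3550 (0.0027), quantile normalization 2865 and 4489 (-0.13) and equal RPKM totals 4070 and 2694 (0.12). Against pleural libraries the counts were 1567 and 5366, then 3313 and 3443, 2787 and 4290, and 3689 and 2709; against peritoneal libraries 1586 and 5485, then 3278 and 3507, 2776 and 4347, and 3080 and 3470. In pericardial against peritoneal libraries the 107 calls became 360 (median-ratio), 302 (quantile) and 476 (equal totals), and 60 to 117 with 1 library left out (60, 67 and 68 without pericardial library 2, 3 and 4, and 64 without peritoneal library 5). In pleural against peritoneal libraries 66 became 630, 559 and 744, and 39 to 490 with 1 library left out, the 39 without pleural library 5 and the 490 without peritoneal library 4. In pericardial against pleural libraries 2 became 7 (pseudocount 0.1), 0 (no filter), 4 (median-ratio) and 4 (these 2 groups alone), and 1 to 4 with 1 left out (4 without pericardial library 5, 1 without pericardial library 2 or 4 or pleural library 4). Of the 9 genes, the 4 calls in pericardial against peritoneal libraries became 2 with these 2 groups alone, and 2 to 4 with 1 left out. In pleural against peritoneal libraries 2 became 1 (pseudocount 1), 0 (no filter), 1 (2 groups alone), 3 with median-ratio scaling and at equal totals, where Jund joined, and 0 to 2 with 1 left out. In pericardial against pleural libraries 1 became 0 (no filter), 2 (2 groups alone, Jun joining with limma adjusted p = 0.0339) and 1 with any left out. With the replicate number as a block, pleural against peritoneal calls among the 9 became 1, since Fos was not called (limma adjusted p = 0.0719) and Fosb was, with 4 and 1 in the other 2 comparisons and 109, 80 and 2 calls over all genes. Signs turned, never past the test, for Egr2 in pericardial against pleural (0.11, quantile), Fosl2 in pleural against peritoneal (-0.055 at equal totals, and -0.11 to 0.15 with 1 library left out, the -0.11 without peritoneal library 4), Egr1 there (-0.47 to 0.053 with 1 left out, the 0.053 without pleural library 3), and Nab1 in heart against pleural (0.0049 median-ratio, 0.11 equal totals) and pericardial (0.00087, equal totals). The cause was not tested.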
